A study of Homo sapiens with 4 samples.

Results

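The 52 genes described here mark the gastric and the intestinal epithelial lineages: transcription factors of endoderm, stomach and intestine, and the mucins, trefoil peptides, enzymes and surface proteins that these epithelia make. They were chosen by symbol for their known roles, with no threshold on their values but with earlier results of these data known, and all 52 had a row among the 57815 rows of the table. The data were 4 RNA-seq libraries of AGS and MKN1, established cell lines derived from human gastric cancers. Cells of each line received, by transfection with the lipid reagent Lipofectamine, a small interfering RNA against HOXB9 (siHOXB9) or a scrambled one (siScramble), and poly-A-selected RNA was sequenced as 1 library per line and siRNA. The 4 groups were thus MKN1 siHOXB9, MKN1 siScramble, AGS siHOXB9 and AGS siScramble. HOXB9 is a homeobox transcription factor, and the study looked for genes that depend on it. With 1 library per group, nothing within a line could be tested, and the only repeat of the knockdown was the other line. Tests across the lines measured the spread between these 4 libraries, which the labels do not describe as repeated cultures.

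In the embryo, the gut tube is patterned along its length by transcription factors. GATA and FOXA proteins open and activate genes throughout the endoderm, SOX2 marks the foregut that gives rise to the stomach, and CDX2 marks the hindgut and the intestine. In the adult stomach, surface pit cells secrete MUC5AC and TFF1, gland neck cells secrete MUC6 and TFF2, and chief cells secrete pepsinogens. In the adult intestine, enterocytes carry villin, cadherin-17 and fatty acid binding protein, and goblet cells secrete TFF3. In intestinal metaplasia, a precursor state of gastric cancer, cells of the stomach switch on CDX2 and intestinal products. Gastric cancers can carry genes of both programs in the same cells.

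The promoters of 4 of the genes are shown because the results below turn on them: CDX2, the intestinal master regulator, REG4 and TSPAN8, abundant products that differed strongly between the lines, and SPINK1, the member with the highest siHOXB9 value relative to siScramble in AGS on the log2 scale used below. Each runs from 250 bases before to 50 bases after a start annotated by RefSeq in GRCh38.p14, 5′ to 3′ on the gene's own strand, which is the minus strand for all 4. They lie at chr13:27969266-27969565 (CDX2), chr1:119811411-119811710 (REG4), chr12:71157950-71158249 (TSPAN8) and chr5:147831622-147831921 (SPINK1). Capitals mark matches, on either strand, to TTTATNG, to TGTTTAC and to AGATAA, short words bound by CDX, FOXA and GATA factors.
CDX2: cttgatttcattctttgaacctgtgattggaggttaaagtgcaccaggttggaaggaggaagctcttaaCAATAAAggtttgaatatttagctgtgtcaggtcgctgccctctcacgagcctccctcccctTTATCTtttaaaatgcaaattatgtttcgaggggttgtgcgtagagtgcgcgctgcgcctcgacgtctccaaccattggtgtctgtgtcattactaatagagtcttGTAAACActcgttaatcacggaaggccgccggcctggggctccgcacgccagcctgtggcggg
REG4: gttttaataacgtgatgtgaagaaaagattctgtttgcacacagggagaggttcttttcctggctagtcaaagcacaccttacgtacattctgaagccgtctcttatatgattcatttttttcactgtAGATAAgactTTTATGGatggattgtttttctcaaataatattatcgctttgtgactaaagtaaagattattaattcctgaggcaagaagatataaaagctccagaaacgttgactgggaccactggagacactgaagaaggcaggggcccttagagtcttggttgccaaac
TSPAN8: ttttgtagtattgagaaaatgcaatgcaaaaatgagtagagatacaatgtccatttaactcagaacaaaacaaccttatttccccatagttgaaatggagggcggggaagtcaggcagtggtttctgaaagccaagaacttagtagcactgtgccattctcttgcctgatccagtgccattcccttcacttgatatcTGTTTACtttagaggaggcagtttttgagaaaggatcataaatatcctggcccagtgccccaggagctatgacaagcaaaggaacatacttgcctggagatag
SPINK1: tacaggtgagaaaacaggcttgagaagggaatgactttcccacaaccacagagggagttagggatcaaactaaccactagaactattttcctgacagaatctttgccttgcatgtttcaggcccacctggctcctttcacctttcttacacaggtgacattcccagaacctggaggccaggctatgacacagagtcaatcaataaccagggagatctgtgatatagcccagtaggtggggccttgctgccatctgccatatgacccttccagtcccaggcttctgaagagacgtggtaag
The CDX2 promoter held 1 match to each of the 3 words, whose first bases lay at -181 (TTTATNG), -119 (AGATAA) and -13 (TGTTTAC), counted from the start. REG4 held AGATAA and TTTATNG, beginning at -122 and -112. TSPAN8 held TGTTTAC, beginning at -53, and SPINK1 held none of the 3. RefSeq promoter sequences were at hand for 33 members, in 39 windows of this length. TTTATNG occurred in 7 of the 39 (17.9%) and in 9.73% of all 35116 windows. TGTTTAC occurred in 5 (12.8%) and in 3.42%, and AGATAA in 6 (15.4%) and in 10.3%. CAAAGTCCA, a word bound by HNF4 proteins, was found in 1 member window, that of MUC13, and in 0.384% of all windows. TATAAA, the TATA box, occurred in 11 member windows (28.2%) and in 11.5% of all, and it overlaps TTTATNG read on the other strand where N is A. Some members have more than 1 window: TSPAN8 was counted in more than 1 with TGTTTAC, and MUC1 in more than 1 with TATAAA. A match is a statement about letters in these windows and not about binding.

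The libraries were of like depth. From the steps between low values, depth was estimated at about 10560000 fragments for MKN1 siHOXB9, 11500000 for MKN1 siScramble, 12510000 for AGS siHOXB9 and 12840000 for AGS siScramble, and 12537 to 12770 genes reached 1 FPKM (fragments per kilobase of transcript, scaled to sequencing depth). HOXB9 itself stood at 0.218 FPKM with siHOXB9 and 1.14 FPKM with siScramble in MKN1 (19.1%), and at 4.445 FPKM with siHOXB9 and 16.4 FPKM with siScramble in AGS (27.0%). The MKN1 percentage rests on low values. On the log2(FPKM + 1) scale used below, the HOXB9 change was -0.81 in MKN1, short of 2-fold, and -1.68 in AGS. The epithelial keratins KRT8 and KRT18 were high in all 4 libraries, from 654 to 1880 FPKM, whereas other epithelial markers and vimentin set the lines apart. EPCAM measured 2.70 (siHOXB9) and 2.14 (siScramble) FPKM in MKN1, against 359 (siHOXB9) and 328 (siScramble) FPKM in AGS. VIM, the mesenchymal intermediate filament, measured 461 (siHOXB9) and 430 (siScramble) FPKM in MKN1, against 2.12 (siHOXB9) and 1.97 (siScramble) FPKM in AGS. VIM was 1 of 6 mesenchymal markers listed, and the others were less clear. COL1A1 measured 43.85 (siHOXB9) and 35.0 (siScramble) FPKM in MKN1, against 29.3 (siHOXB9) and 15.8 (siScramble) FPKM in AGS. LUM measured 6.90 (siHOXB9) and 3.93 (siScramble) FPKM in MKN1, against 0.109 (siHOXB9) and 0 (siScramble) FPKM in AGS. PDGFRB was at most 1.305 FPKM in any library. CDH1, a defining epithelial adhesion gene, was at most 3.28 FPKM in any library. Summed over 8 epithelial markers, the level was 2046 (siHOXB9) and 1795 (siScramble) FPKM in MKN1, against 5057 (siHOXB9) and 4458 (siScramble) FPKM in AGS, so that it moved with the line and, in both lines, with the siRNA. Its part in the differences given below was not tested.

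The lineage genes held about 1% of the summed FPKM in AGS and far less in MKN1. Together the 52 genes summed to 79.4 FPKM (siHOXB9) and 66.6 FPKM (siScramble) in MKN1, which is 0.00961% and 0.0085% of all FPKM in those libraries, against 8258 FPKM (siHOXB9) and 7603 FPKM (siScramble) in AGS, which is 1.06% and 0.915%. In MKN1, 13 (siHOXB9) and 14 (siScramble) members reached 1 FPKM, against 34 (siHOXB9) and 33 (siScramble) in AGS. At 10 FPKM or more there were 3 in each MKN1 library, against 27 (siHOXB9) and 26 (siScramble) in AGS. The AGS sum was carried by few genes: PLA2G2A, LYZ and CTSE made up 71.9% of it with siHOXB9 and 74.0% with siScramble. In MKN1 the leading members were MUC1 and TSPAN8, followed by FOXA1 with siHOXB9 and by BARX1 with siScramble. In bulk RNA, fewer cells that express a gene and less of its RNA per cell cannot be told apart.

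**Figure D1:**
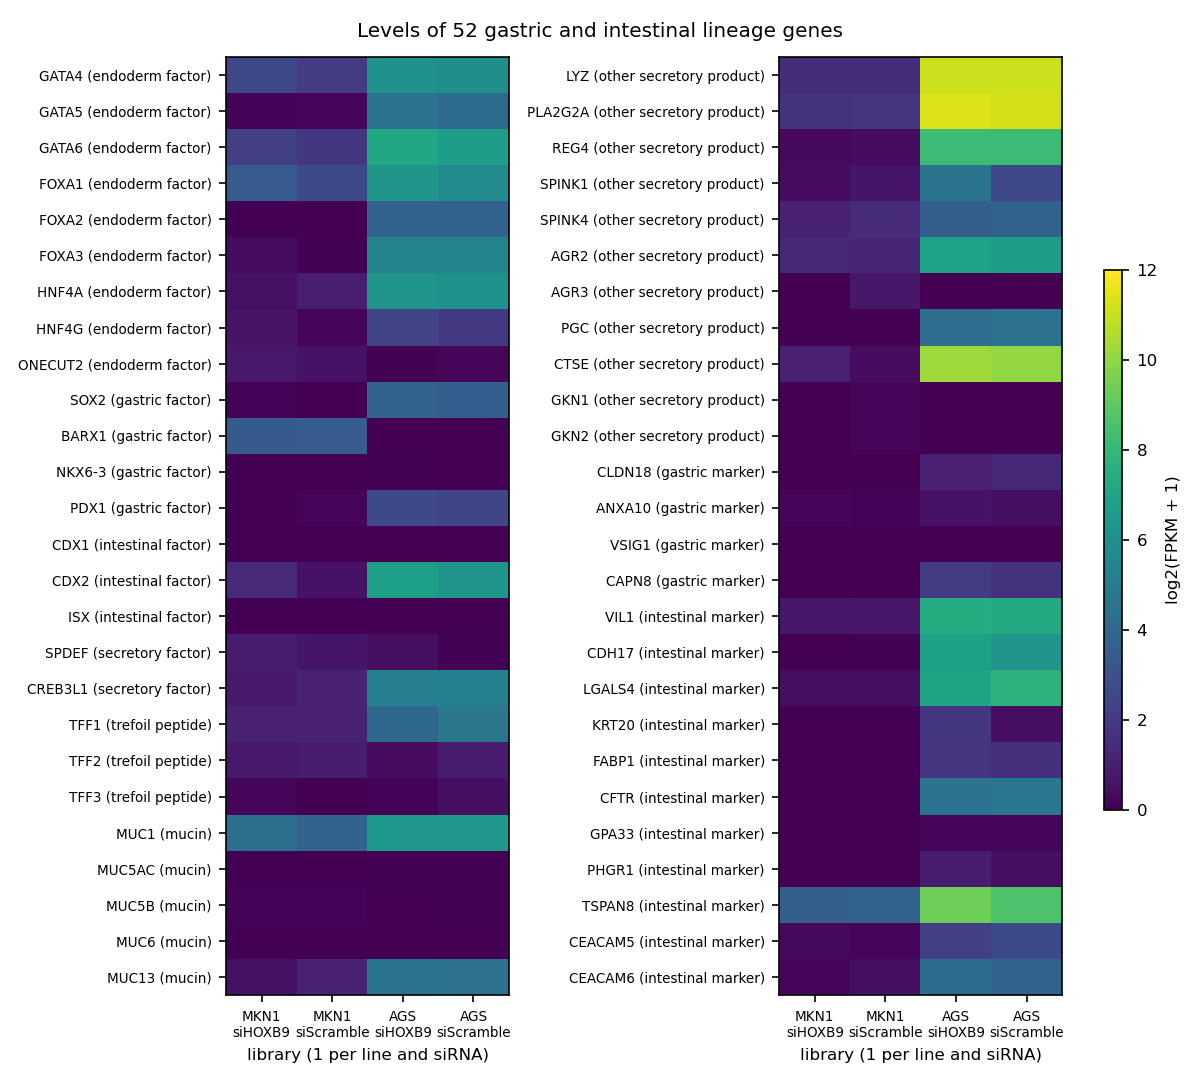
Level of each of the 52 genes in each library, as log2(FPKM + 1) on the colour scale, with 1 library per line and siRNA. The AGS columns are bright for LYZ, PLA2G2A and CTSE, all above 1000 FPKM, and BARX1 is the gene at 1 FPKM or more in both MKN1 columns and at 0 in both AGS columns.

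For 39 of the 52 genes, both MKN1 libraries lay below both AGS libraries, a pattern found in 35.8% of the 24308 rows above 0 in some library. The reverse held for 4 genes, BARX1, ONECUT2, SPDEF and MUC5B, and for 28.6% of those rows. The lines were then compared with limma, a linear model fitted to log2(FPKM + 1) across all genes, and a gene was called at a Benjamini-Hochberg adjusted p under 0.05 and a difference of at least 1 on the log2 scale. Of 34 members tested, 33 were lower in MKN1 and 1, BARX1, was higher, where 20.9% and 16.2% of all 13758 genes tested were called. Of these 34, 19 reached 1 FPKM in 1 line alone and had to differ, so that this count supports nothing by itself. Of the 15 members that reached 1 FPKM in both lines, in 1 or 2 libraries of each, all 15 were lower in MKN1, where 17.1% of 11547 such genes were called lower and 10.6% higher. Their median difference was -4.81, and that of all such genes -0.10, on the log2 scale.

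Among the endoderm factors, the GATA and FOXA genes kept a measurable level in MKN1 for 3 members and were near 0 for the rest. FOXA1, a forkhead pioneer factor that opens chromatin, stood nearest between the lines, at 10.3 (siHOXB9) and 5.30 (siScramble) FPKM in MKN1, against 82.0 (siHOXB9) and 54.5 (siScramble) FPKM in AGS. GATA4, a zinc finger factor of endoderm and heart, measured 5.06 (siHOXB9) and 3.395 (siScramble) FPKM in MKN1, against 70.1 (siHOXB9) and 62.8 (siScramble) FPKM in AGS. GATA6, its paralog and a gene often amplified in gastric cancer, measured 3.87 (siHOXB9) and 2.81 (siScramble) FPKM in MKN1, against 139 (siHOXB9) and 103 (siScramble) FPKM in AGS. For all 3, the MKN1 libraries lay well below the AGS libraries, with MKN1 means at 11.4% (FOXA1), 6.36% (GATA4) and 2.75% (GATA6) of the AGS means. The limma differences were -3.01 ± 0.188 (SE, adjusted p = 1.46e-05) for FOXA1, -3.71 ± 0.196 (adjusted p = 6.65e-06) for GATA4 and -4.81 ± 0.183 (adjusted p = 1.97e-06) for GATA6, each over 2 libraries a line. GATA5 was at 0.0850 (siHOXB9) and 0.112 (siScramble) FPKM in MKN1, against 22.5 (siHOXB9) and 17.5 (siScramble) FPKM in AGS. FOXA2 was listed at 0 in both MKN1 libraries, against 12.5 (siHOXB9) and 12.6 (siScramble) FPKM in AGS, and FOXA3 measured 0.324 (siHOXB9) and 0.0503 (siScramble) FPKM in MKN1, against 40.4 (siHOXB9) and 41.6 (siScramble) FPKM in AGS. Of the 3 FOXA genes, MKN1 thus held FOXA1 above 1 FPKM and AGS held all 3.

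The nuclear receptor HNF4A, which drives liver and gut epithelial genes, measured 0.471 (siHOXB9) and 1.03 (siScramble) FPKM in MKN1, against 76.4 (siHOXB9) and 67.9 (siScramble) FPKM in AGS. The limma difference was -5.40 ± 0.231 (SE, adjusted p = 3.08e-06). Its paralog HNF4G measured 0.572 (siHOXB9) and 0.119 (siScramble) FPKM in MKN1, against 4.54 (siHOXB9) and 3.12 (siScramble) FPKM in AGS. Both receptors were lower in both MKN1 libraries. ONECUT2, a cut-homeodomain factor, ran the other way below 1 FPKM, at 0.752 (siHOXB9) and 0.494 (siScramble) FPKM in MKN1, against 0.0655 (siHOXB9) and 0.131 (siScramble) FPKM in AGS.

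The stomach factors split. SOX2, which specifies foregut, measured 0.0887 (siHOXB9) and 0 (siScramble) FPKM in MKN1, against 12.5 (siHOXB9) and 11.2 (siScramble) FPKM in AGS. PDX1, a homeobox factor of pancreas, antrum and duodenum, was listed at 0 (siHOXB9) and 0.116 (siScramble) FPKM in MKN1, against 5.24 (siHOXB9) and 4.67 (siScramble) FPKM in AGS. BARX1, a homeobox gene that in the mouse acts in the stomach mesenchyme, was the mirror image, at 9.54 (siHOXB9) and 10.3 (siScramble) FPKM in MKN1 and listed at 0 in both AGS libraries. The MKN1 values rest on an estimated 119 (siHOXB9) and 139 (siScramble) fragments. BARX1 (ENSG00000131668.13) lies on chromosome 9 from 93951622 to 93955372 on the minus strand in GRCh38, as annotated by GENCODE 29. Its call in limma (adjusted p = 1.44e-05) has a fold that depends on the pseudocount, because AGS is at 0. NKX6-3, a homeobox factor of endocrine cells of the antrum in the mouse, was at most 0.0556 FPKM, in AGS siHOXB9.

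CDX2 was the one intestinal factor present. It measured 1.76 (siHOXB9) and 0.516 (siScramble) FPKM in MKN1, against 107 (siHOXB9) and 74.8 (siScramble) FPKM in AGS, with a limma difference of -5.47 ± 0.206 (SE, adjusted p = 1.89e-06). CDX2 (ENSG00000165556.9) lies on chromosome 13 from 27962137 to 27971139 on the minus strand. Its paralog CDX1 was listed at 0 in all 4 libraries, and ISX, an intestine-specific homeobox gene, reached 0.0282 FPKM in AGS siHOXB9 and was at 0 in the other 3 libraries. AGS libraries thus held the foregut factor SOX2 and the hindgut factor CDX2 together, with the CDX2 level above that of SOX2 in both. PDX1 and CDX2 are neighbours on chromosome 13, 35905 bases apart, with AGS means of 4.96 and 90.7 FPKM. Of the secretory cell factors, CREB3L1, a membrane-bound bZIP factor of the secretory pathway, measured 0.813 (siHOXB9) and 1.22 (siScramble) FPKM in MKN1, against 33.7 (siHOXB9) and 35.3 (siScramble) FPKM in AGS. SPDEF, an ETS factor of goblet cells, stayed below 1 FPKM in all 4 libraries.

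The gel-forming mucins were near 0 in all 4 libraries. MUC5AC, MUC6 and MUC5B did not exceed 0.0998 FPKM in any of them. These genes are long, and the MUC5B value of 0.0998 FPKM in MKN1 siHOXB9 corresponds to an estimated 18.6 fragments. The transmembrane mucins were the ones detected. MUC1, a cell surface mucin, measured 20.3 (siHOXB9) and 12.9 (siScramble) FPKM in MKN1, against 87.8 (siHOXB9) and 86.0 (siScramble) FPKM in AGS, and its difference of -2.35 ± 0.204 (SE, limma, adjusted p = 7.56e-05) was close to that of SPINK4, at -2.36 ± 0.212 (SE, limma, adjusted p = 8.85e-05), the other small one among the 15 members measured in both lines. MUC13 measured 0.467 (siHOXB9) and 1.23 (siScramble) FPKM in MKN1, against 23.2 (siHOXB9) and 21.4 (siScramble) FPKM in AGS.

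Of the trefoil peptides, small secreted proteins that protect the mucosa, TFF1 stood out in AGS. TFF1 measured 1.29 (siHOXB9) and 1.20 (siScramble) FPKM in MKN1, against 14.85 (siHOXB9) and 26.2 (siScramble) FPKM in AGS. TFF2 and TFF3 were below 1 FPKM in all 4 libraries, although the 3 genes are neighbours on chromosome 21, with 11153 bases between TFF2 and TFF1 and 30705 bases between TFF3 and TFF2. The AGS means were 20.5 FPKM for TFF1, 0.648 FPKM for TFF2 and 0.247 FPKM for TFF3. AGR2 and AGR3, paralogous protein disulfide isomerases 25971 bases apart on chromosome 7, differed likewise, with AGS means of 112 FPKM for AGR2 and 0 for AGR3, which was also at 0 in MKN1 siHOXB9 and at 0.692 FPKM in MKN1 siScramble. AGR2, which folds mucins in the endoplasmic reticulum, measured 1.56 (siHOXB9) and 1.45 (siScramble) FPKM in MKN1, against 122 (siHOXB9) and 101 (siScramble) FPKM in AGS.

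On the log2(FPKM + 1) scale, the 4 largest differences between the lines among the members were those of enzymes and a lectin. LYZ, lysozyme, which cuts bacterial cell walls, measured 1.997 (siHOXB9) and 2.01 (siScramble) FPKM in MKN1, against 2163 (siHOXB9) and 2197 (siScramble) FPKM in AGS. PLA2G2A, a secreted antibacterial phospholipase, measured 2.37 (siHOXB9) and 2.57 (siScramble) FPKM in MKN1, against 2578 (siHOXB9) and 2377 (siScramble) FPKM in AGS. CTSE, the aspartic protease cathepsin E of surface mucous cells, measured 1.11 (siHOXB9) and 0.331 (siScramble) FPKM in MKN1, against 1200 (siHOXB9) and 1054 (siScramble) FPKM in AGS. The MKN1 means were thus 0.0919% (LYZ), 0.0998% (PLA2G2A) and 0.064% (CTSE) of the AGS means. The limma differences were -9.50 ± 0.165 (SE, adjusted p = 4.85e-07) for LYZ, -9.48 ± 0.168 (adjusted p = 4.85e-07) for PLA2G2A and -9.39 ± 0.193 (adjusted p = 5.07e-07) for CTSE. REG4, a secreted lectin of intestinal metaplasia, measured 0.224 (siHOXB9) and 0.317 (siScramble) FPKM in MKN1, against 296 (siHOXB9) and 303 (siScramble) FPKM in AGS, so that its MKN1 mean was 0.0904% of the AGS mean. LYZ is also a marker of myeloid cells. Of the other immune markers, the leukocyte genes PTPRC and CD3E were listed at 0 in MKN1 and were at most 0.0183 FPKM in AGS. The myeloid marker CD68 measured 12.7 (siHOXB9) and 12.02 (siScramble) FPKM in MKN1, against 2.67 (siHOXB9) and 3.30 (siScramble) FPKM in AGS, and CD14 measured 0.467 (siHOXB9) and 0.0626 (siScramble) FPKM in MKN1, against 0.0576 (siHOXB9) and 0 (siScramble) FPKM in AGS. CD68 was thus higher in MKN1, where LYZ was lower. CD14 was below 1 FPKM in all 4 libraries, and only its MKN1 siHOXB9 value stood clear of the others.

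The MKN1 levels of these genes were small in fragments, an estimated 8.83 (siHOXB9) and 9.57 (siScramble) for LYZ, 18.1 (siHOXB9) and 21.1 (siScramble) for PLA2G2A and 22.3 (siHOXB9) and 7.21 (siScramble) for CTSE. Residual levels of this kind were found in both directions. Of 407 genes with an AGS mean of 300 FPKM or more, 9 had an MKN1 mean at or under 0.2% of it, with 1 of them at 0. Of 433 genes with an MKN1 mean of 300 FPKM or more, 6 had an AGS mean between 0.0786% and 0.155% of it. These limits were chosen after the values were seen, and the source of the residual fragments was not tested.

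The remaining stomach products were sparse. PGC, pepsinogen C of chief and neck cells, was listed at 0 in both MKN1 libraries, against 18.6 (siHOXB9) and 21.7 (siScramble) FPKM in AGS. GKN1 and GKN2, the gastrokines of pit cells, were listed at 0 in AGS and in MKN1 siHOXB9 and stood at 0.157 and 0.161 FPKM in MKN1 siScramble. CLDN18, the gastric tight junction protein, measured 0.0244 (siHOXB9) and 0.0274 (siScramble) FPKM in MKN1, against 1.15 (siHOXB9) and 1.53 (siScramble) FPKM in AGS. CAPN8, a calpain of gastric pit cells, was at most 0.00245 FPKM in MKN1, against 3.29 (siHOXB9) and 2.40 (siScramble) FPKM in AGS. ANXA10 and VSIG1 did not reach 1 FPKM in any library. SPINK4, a small protease inhibitor of goblet cells, measured 1.31 (siHOXB9) and 1.85 (siScramble) FPKM in MKN1, against 11.3 (siHOXB9) and 13.2 (siScramble) FPKM in AGS.

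The intestinal surface genes were high in AGS. TSPAN8, a tetraspanin, measured 11.2 (siHOXB9) and 12.3 (siScramble) FPKM in MKN1, against 645 (siHOXB9) and 403 (siScramble) FPKM in AGS. VIL1, villin, the actin bundler of microvilli, measured 0.705 (siHOXB9) and 0.679 (siScramble) FPKM in MKN1, against 170.4 (siHOXB9) and 161 (siScramble) FPKM in AGS. CDH17, the intestinal cadherin, measured 0.0274 (siHOXB9) and 0.0447 (siScramble) FPKM in MKN1, about 1 fragment each, against 114 (siHOXB9) and 76.0 (siScramble) FPKM in AGS. For these 3 genes no MKN1 library came near an AGS library, and TSPAN8 kept the highest MKN1 level of all intestinal markers. LGALS4, a galectin of the gut surface, measured 0.419 (siHOXB9) and 0.378 (siScramble) FPKM in MKN1, against 128 (siHOXB9) and 216 (siScramble) FPKM in AGS. KRT20, FABP1 and CFTR were listed at 0 in both MKN1 libraries. CFTR, the chloride channel, stood at 22.5 (siHOXB9) and 25.6 (siScramble) FPKM in AGS, whereas FABP1, the fatty acid carrier of enterocytes, stood at 2.52 (siHOXB9) and 2.13 (siScramble) FPKM. GPA33 and PHGR1 did not reach 1 FPKM in any library. CEACAM5 and CEACAM6, adhesion genes of high sequence similarity 21178 bases apart on chromosome 19, had AGS means of 4.68 and 15.4 FPKM and MKN1 means of 0.160 and 0.254 FPKM. How reads shared by such copies were split is not stated, so these 2 levels are uncertain.

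**Figure D2:**
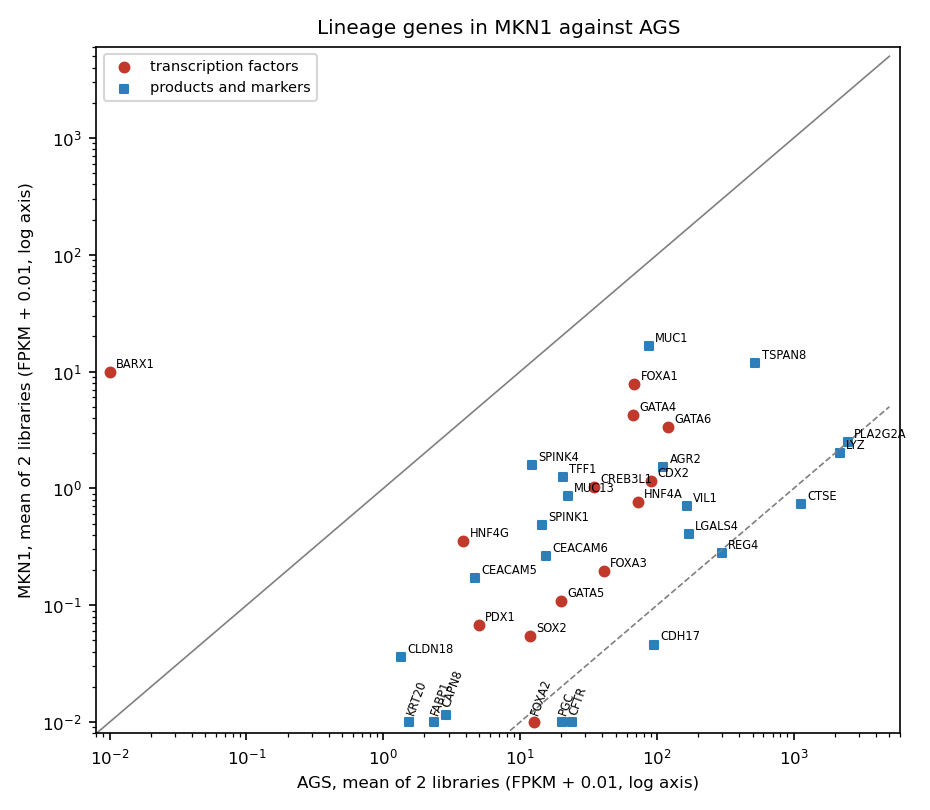
Mean FPKM over the 2 libraries of a line, MKN1 on the vertical and AGS on the horizontal axis, both log axes with 0.01 FPKM added, for the 35 members with a mean of 1 FPKM or more in a line. The solid line marks equal levels and the dashed line an MKN1 level 1000 times lower; BARX1 lies above the solid line, and LYZ, PLA2G2A, CTSE, REG4 and CDH17 lie at or below the dashed line, as do FOXA2, PGC and CFTR, which are listed at 0 in MKN1.

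In AGS, SPINK1 and KRT20 stood highest with siHOXB9 relative to siScramble, and TFF1 and LGALS4 lowest. Changes within a line are given as log2((siHOXB9 FPKM + 1)/(siScramble FPKM + 1)), which understates the change of low genes, for genes that reached 1 FPKM in 1 or both of the line's libraries. In AGS, 34 members were measured in this sense, and 2 were higher by at least 2-fold and 0 lower, where 1.68% of 13252 genes were higher and 2.21% lower. SPINK1, a secreted trypsin inhibitor, measured 23.6 FPKM with siHOXB9 and 5.13 FPKM with siScramble, and KRT20, the keratin of differentiated intestinal cells, 2.705 FPKM with siHOXB9 and 0.364 FPKM with siScramble. KRT20 entered the count through the siHOXB9 library alone. The changes were 2.003 for SPINK1 and 1.44 for KRT20.

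Counting error was set by few fragments for both genes. SPINK1 had an estimated 180 fragments with siHOXB9 and 40.1 with siScramble, which gives an FPKM ratio of 4.60 with a 95% interval of 3.26 to 6.68. KRT20 had an estimated 50.1 fragments with siHOXB9 and 6.93 with siScramble, and a ratio of 7.43 with an interval of 3.31 to 19.2. These intervals, exact binomial ones at the estimated depth, cover counting error only and not the spread between cultures, and reads without molecular identifiers are not independent molecules. In MKN1, SPINK1 was at 0.331 (siHOXB9) and 0.619 (siScramble) FPKM, an estimated 2.15 and 4.34 fragments, and KRT20 was listed at 0 in both libraries. The other line therefore gives no repeat of either difference. SPINK1 (ENSG00000164266.10) lies on chromosome 5 from 147824568 to 147831786 and KRT20 (ENSG00000171431.3) on chromosome 17 from 40875941 to 40885227, both on the minus strand.

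Below 2-fold, the AGS differences went in both directions. At 1.5-fold or more, TSPAN8 joined SPINK1 and KRT20 among the higher genes, and TFF1 and LGALS4 were lower, making 3 and 2 of 34 members, where 5.64% and 8.37% of all genes were past that size. TSPAN8 stood at 645 FPKM with siHOXB9 and 403 FPKM with siScramble, a ratio of 1.60 with a counting interval of 1.54 to 1.66. CDH17 stood at 114 FPKM with siHOXB9 and 76.0 FPKM with siScramble, a ratio of 1.501 with an interval of 1.42 to 1.58. Both are surface proteins of intestinal cells, and so is the product of LGALS4, which lay the other way at 128 FPKM with siHOXB9 and 216 FPKM with siScramble, a ratio of 0.592 with an interval of 0.56 to 0.625. TFF1 stood at 14.85 FPKM with siHOXB9 and 26.2 FPKM with siScramble, a ratio of 0.568 with an interval of 0.402 to 0.801 from an estimated 55.0 and 99.4 fragments. VIL1, at 170.4 FPKM with siHOXB9 and 161 FPKM with siScramble, differed little, with a ratio of 1.06. The paralogs CEACAM6 and CEACAM5 lay on opposite sides, with ratios of 1.41 (interval 1.23 to 1.60) and 0.716 (interval 0.544 to 0.925), subject to the uncertainty of shared reads. The intestinal markers as a list thus had 6 of 9 measured members above 0, with a median change of 0.17. Over all genes, 43.0% lay above 0, with a median of -0.06.

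The factors lay mostly above 0 in AGS, where 43.0% of all genes did. Of 8 measured endoderm factors 6 were above 0, with a median change of 0.26, against -0.06 over all genes. FOXA2 and FOXA3, at -0.01 and -0.04, were the exceptions and lay above 0 when each library was rescaled or the changes were centred. CREB3L1, a secretory cell factor, was at -0.06, stayed below 0 with centring and lay above 0 with rescaling. FOXA1 stood at 82.0 FPKM with siHOXB9 and 54.5 FPKM with siScramble, a ratio of 1.505 (interval 1.42 to 1.60). CDX2 stood at 107 FPKM with siHOXB9 and 74.8 FPKM with siScramble, a ratio of 1.43 (interval 1.37 to 1.49). GATA6 had a ratio of 1.35 (interval 1.29 to 1.41), GATA5 of 1.28 (interval 1.14 to 1.44) and GATA4 of 1.115 (interval 1.04 to 1.19). HNF4A had a ratio of 1.12 (interval 1.04 to 1.22) and HNF4G of 1.455 (interval 1.13 to 1.87), while SOX2 (interval 0.956 to 1.30) and PDX1 (interval 0.879 to 1.42) had intervals that hold 1. Of the 5 members with the highest AGS means, TSPAN8 had the ratio of 1.60 given above, and the other 4 had ratios nearer 1. LYZ had a ratio of 0.985 (interval 0.960 to 1.01), REG4 of 0.977 (interval 0.937 to 1.02), PLA2G2A of 1.085 (interval 1.07 to 1.11) and CTSE of 1.14 (interval 1.12 to 1.16).

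Over all 34 measured members, 22 (64.7%) lay above 0 in AGS, where 43.0% of all genes did, and the median change was 0.14, against -0.06 over all genes. With changes centred on the median gene the count was 26 of 34 (76.5%), where 50% of all genes lay above 0, and with libraries rescaled to the same total it was 27 of 34 (79.4%) where 53.8% did. Neither scaling shifted the median gene by more than 0.1 on the log2 scale in either line. KRT20 is among the members above 0 in each of these AGS counts, and the filter fixed its direction.

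In MKN1 the measured set was smaller and the differences were spread around 0. Of 16 measured members, 0 were higher and 0 lower by at least 2-fold, where 2.1% and 1.94% of 13122 genes were. At 1.5-fold, FOXA1, CDX2, MUC1 and CTSE were higher and MUC13 was lower, where 7.96% and 5.39% of all genes were past that size. FOXA1 stood at 10.3 FPKM with siHOXB9 and 5.30 FPKM with siScramble, an estimated 283 and 159 fragments, a ratio of 1.94 with a counting interval of 1.59 to 2.36. CDX2 stood at 1.76 FPKM with siHOXB9 and 0.516 FPKM with siScramble, an estimated 70.6 and 22.5 fragments, a ratio of 3.41 with an interval of 2.07 to 5.63. MUC1 stood at 20.3 FPKM with siHOXB9 and 12.9 FPKM with siScramble, a ratio of 1.57 with an interval of 1.22 to 2.04. CDX2 and CTSE reached 1 FPKM with siHOXB9 alone, and HNF4A, CREB3L1 and MUC13 with siScramble alone, so that these 5 were measured through the library in which they were higher. CTSE had a ratio of 3.36 (interval 1.41 to 9.46) and MUC13 one of 0.380 (interval 0.186 to 0.735), both from 37.1 or fewer estimated fragments a library.

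The other MKN1 members differed less. GATA4 had a ratio of 1.49 (interval 1.1 to 2.0) and GATA6 of 1.38 (interval 1.03 to 1.85). TSPAN8, at 11.2 FPKM with siHOXB9 and 12.3 FPKM with siScramble, had a ratio of 0.916 (interval 0.710 to 1.18), and BARX1 one of 0.923 (interval 0.721 to 1.19). HNF4A had 0.459 (interval 0.165 to 1.22), which counting error alone allows to be 1. In all, 8 of the 16 members (50%) lay above 0, where 63.1% of all genes did, with a median change of 0.03, against 0.10 over all genes. With centring, 6 of 16 (37.5%) lay above 0, TFF1 and AGR2 having crossed it, where 50% of all genes did, and with rescaling 8 of 16 did, where 53.9% of all genes did. These counts and the median include CDX2, CTSE, HNF4A, CREB3L1 and MUC13, whose direction the filter fixed. They therefore do not set the members apart.

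**Figure D3:**
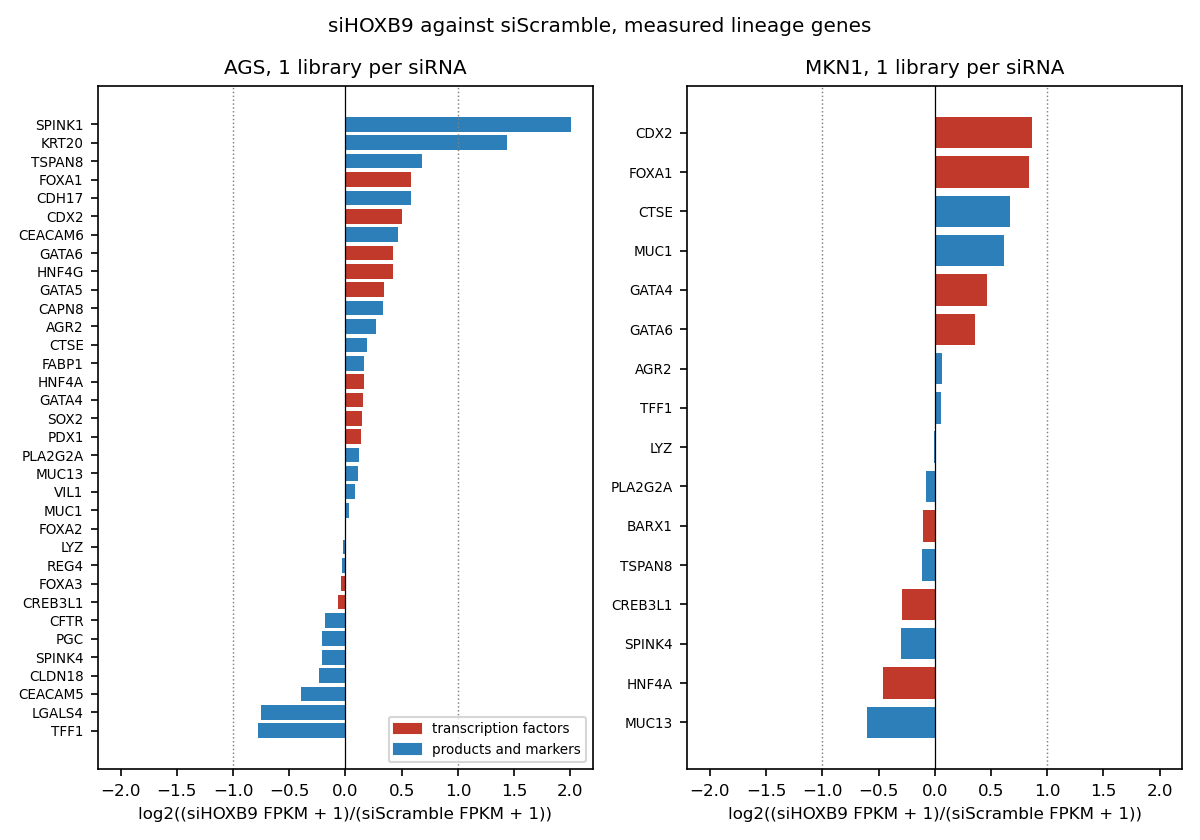
Change of each measured member with siHOXB9 against siScramble on the log2(FPKM + 1) scale, 34 members in AGS (left) and 16 in MKN1 (right), 1 library per siRNA, with dotted lines at 2-fold. SPINK1 (2.003) and KRT20 (1.44) pass the dotted line in AGS, and no member passes it in MKN1, where CDX2 (0.86) and FOXA1 (0.84) come nearest.

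Both lines could be read together for 15 members. With siHOXB9, 7 of them were higher in both lines (GATA4, GATA6, FOXA1, CDX2, MUC1, AGR2 and CTSE), 3 were lower in both (CREB3L1, LYZ and SPINK4) and 5 lay in opposite directions (HNF4A, TFF1, MUC13, PLA2G2A and TSPAN8). Of all 11547 genes measured in both lines, 29.2% were higher in both, 23.9% lower in both and 46.9% opposite. In MKN1, CDX2, CTSE, HNF4A, CREB3L1 and MUC13 reached 1 FPKM in 1 library alone, so the filter fixed their direction there. These 5 therefore add no evidence to the split. With centring, AGR2 and TFF1 in MKN1 and LYZ in AGS cross 0, and with rescaling LYZ and CREB3L1 in AGS do. In limma over both lines, with the line as a term, 0 of 34 members reached an adjusted p under 0.05, where 1 of all 13758 genes (0.00727%) did, and the lowest adjusted p of a member was 0.513. The fit has 1 residual degree of freedom, and an adjusted p that misses the threshold does not show that a gene did not differ. At an unadjusted p under 0.05 there were 2 of the 34 members, FOXA1 and CDX2. That share is below the 7.12% of all genes, so the count does not set the members apart. The estimate was 0.71 ± 0.188 (SE, unadjusted p = 0.00657, adjusted p = 0.513) for FOXA1 and 0.69 ± 0.206 (SE, unadjusted p = 0.0122, adjusted p = 0.592) for CDX2, both higher with siHOXB9 in 2 of 2 lines. FOXA1 shares exon sequence with TTC6 on the opposite strand, and the labels do not say whether the libraries kept strand. The part of TTC6 in the FOXA1 level was not tested.

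**Figure D4:**
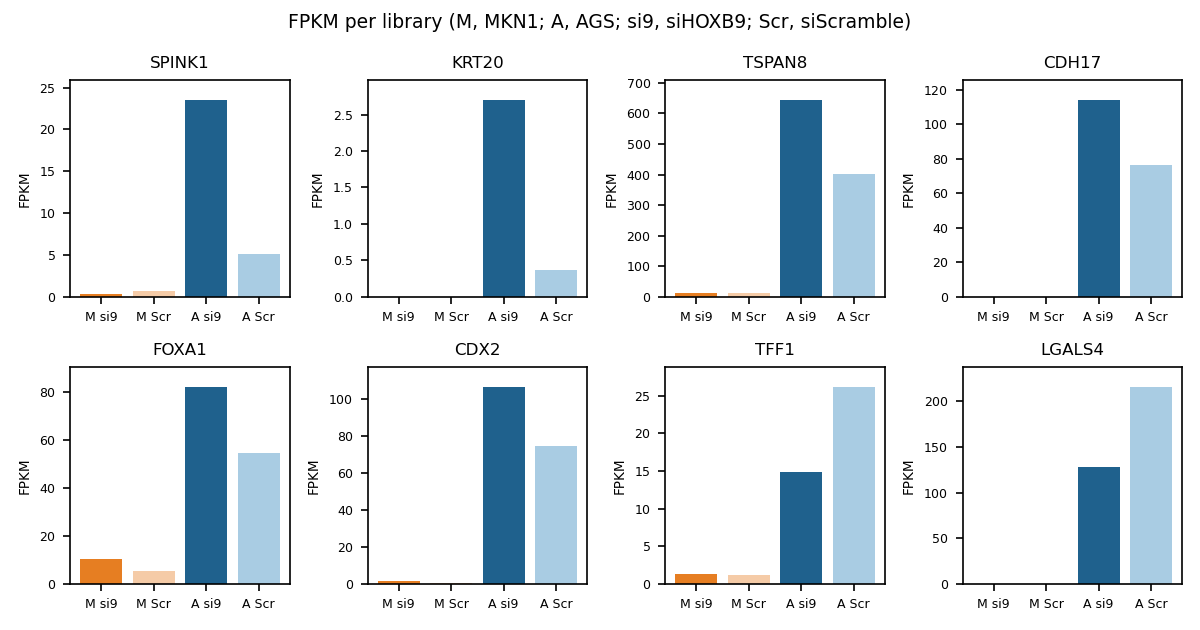
FPKM of 8 members in each library (M, MKN1; A, AGS; si9, siHOXB9; Scr, siScramble), 1 bar per library with no error bar because each group is 1 library. FOXA1 and CDX2 are higher with siHOXB9 in both lines, while SPINK1 and KRT20 are higher with siHOXB9 in AGS, where SPINK1 reaches 23.6 FPKM. CDX2 reached 1 FPKM in MKN1 through the siHOXB9 library alone.

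Genes of the same lineages outside the 52 were read from 3 further lists. Of 20 other gastric genes with a row, 7 were measured in AGS, and 1 was higher by at least 2-fold, 0 lower and 3 above 0, with a median change of -0.003; in MKN1 3 were measured, with 3 above 0, 0 past 2-fold and a median of 0.18. Over all genes, 43.0% lay above 0 in AGS, with a median of -0.06, and 63.1% in MKN1, with a median of 0.10. At 2-fold, 1.68% of all genes were higher and 2.21% lower in AGS, and 2.1% were higher and 1.94% lower in MKN1. The gastric gene higher by at least 2-fold was GIF, the vitamin B12 binding intrinsic factor of parietal cells, at 3.355 FPKM with siHOXB9 and 0.305 FPKM with siScramble. GIF reached 1 FPKM with siHOXB9 alone, so the filter fixed its direction. Of the 7 gastric genes measured in AGS, 5 reached 1 FPKM with siHOXB9 and 6 with siScramble, so the filter fixed the direction of some of them. The acid pump subunit ATP4B, the lipase LIPF and the pepsinogen copies PGA3, PGA4 and PGA5, 5 genes singled out after their values were seen, were listed at 0 in all 4 libraries. Of the others, PSCA ran against the lineage genes, at 19.0 (siHOXB9) and 17.4 (siScramble) FPKM in MKN1, against 1.93 (siHOXB9) and 1.94 (siScramble) FPKM in AGS. Of 37 other intestinal genes, 11 were measured in AGS, with 10 above 0, 0 past 2-fold and a median change of 0.34, and 3 in MKN1, with 2 above 0, 0 past 2-fold and a median of 0.31. REG1A, a secreted lectin, was listed at 0 in both MKN1 libraries, against 202 (siHOXB9) and 128 (siScramble) FPKM in AGS. LGR5, the receptor that marks gut stem cells, measured 0.0785 (siHOXB9) and 0.411 (siScramble) FPKM in MKN1, against 50.2 (siHOXB9) and 42.5 (siScramble) FPKM in AGS. ALPI, intestinal alkaline phosphatase, was the opposite, at 135 (siHOXB9) and 162 (siScramble) FPKM in MKN1, against 11.8 (siHOXB9) and 7.28 (siScramble) FPKM in AGS, although its near-identical paralogs make this level uncertain.

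Of 17 other epithelial factors of the gut, 13 were measured in AGS, with 6 above 0 (43.0% of all genes), 1 lower by at least 2-fold and a median change of -0.03, and 9 in MKN1, with 8 above 0 (63.1% of all genes), 0 past 2-fold and a median change of 0.28. The lower one was EHF, an ETS factor of epithelia, at 1.90 FPKM with siHOXB9 and 5.375 FPKM with siScramble in AGS. At 2-fold, 1.68% of all genes were higher and 2.21% lower in AGS, and 2.1% were higher and 1.94% lower in MKN1. In MKN1, EHF reached 1 FPKM with siHOXB9 alone, so the filter fixed its direction there. Of 8 factors measured in both lines, limma called 6 lower in MKN1 and 0 higher, where 17.1% and 10.6% of all genes in both lines were called. KLF5, a zinc finger factor of gut epithelium, kept a clear level in both, at 25.6 (siHOXB9) and 20.9 (siScramble) FPKM in MKN1, against 73.3 (siHOXB9) and 74.9 (siScramble) FPKM in AGS. ELF3, an epithelial ETS factor, measured 32.6 (siHOXB9) and 20.02 (siScramble) FPKM in MKN1, against 228 (siHOXB9) and 208 (siScramble) FPKM in AGS.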

How the data were processed

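The deposited table holds FPKM values computed by the authors, 1 column per library, with genes by symbol. Per the labels, 1 µg of RNA per sample was poly-A selected and reverse transcribed with random hexamers. Per the submitters' processing notes, the genome builds named are GRCh38 and hg38. Annotation release, aligner, counter and any use of strand were not given in the sources used here, and read counts were not used. Depth was estimated from low values of single-transcript genes, of which 65.9% to 69.5% lay within 0.05 of a whole fragment, where evenly spread values would give 10%. Fragment numbers and 95% Clopper-Pearson intervals rest on that estimate and cover counting error only.

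Positions and shared exons came from GENCODE 29, and 10 members share exon sequence with another gene. Members and lists were chosen with earlier results of these data known. All members, HOXB9, and genes of other lists past 2-fold or among the 4 highest of their list could be named. EPCAM, CDH1, PTPRC and CD3E, from the marker lists, and the 5 gastric genes at 0 are named beyond that rule, chosen after their values were seen. Changes within a line used a pseudocount of 1 FPKM and no test. limma 3.58.1 (R 4.3.3), two-sided, with an intensity trend and terms for line and siRNA, was fitted to 13758 genes with at least 1 FPKM in 2 or more libraries. It was tested on simulated data. Tables were made with Python 3.11.15, pandas 2.3.3 and SciPy 1.17.1, and figures with matplotlib 3.10.9. Other settings tried were a 0.1 FPKM pseudocount, no filter, centring, rescaling, quantile normalization, no trend, fits without the line or siRNA term, each siRNA alone and a 1.5-fold rule.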

Additional observations from a re-analysis of the deposited data

Results flagged for a closer look

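In 4 genes with at least 1 FPKM in both lines, the siHOXB9 library lay on opposite sides of the siScramble library in the 2 lines, with changes at least 0.5 apart on the log2(FPKM + 1) scale. With 1 library per group, none of these differences was tested. For TFF1 the MKN1 change minus the AGS change was 0.83, from a change of 0.06 in MKN1 and -0.78 in AGS, and the MKN1 value rests on an estimated 4.08 fragments in each library and lies below 0 when changes are centred on the median gene. For TSPAN8 the difference was -0.79, from -0.12 in MKN1, where the counting interval of the ratio holds 1, and 0.68 in AGS. For MUC13 it was -0.71, from -0.60 in MKN1 and 0.11 in AGS. For HNF4A it was -0.63, from -0.46 in MKN1 and 0.17 in AGS, and both MUC13 and HNF4A were measured in MKN1 through the siScramble library alone.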

How the results depend on the processing

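Within a line each group is 1 library, so none could be left out. Replicate numbers gave no pairing beyond the line, which was a term in the limma fit over both lines. In AGS, without a filter on low values, the median change of the members was 0.035 in place of 0.14, and at a 1.5-fold rule 2 members were lower in place of 0. In MKN1, a pseudocount of 0.1 FPKM gave 2 higher members (CDX2 and CTSE) and 1 lower (MUC13) in place of 0 and 0, and the 1.5-fold rule gave 4 higher and 1 lower. Over both lines the limma count was 0 under each alternative run, and the 33 lower and 1 higher members in MKN1 against AGS moved by less than 1.5 times. Over all genes, the siHOXB9 count was 0 or 1 under every limma setting. No direction of a called gene reversed, while small changes crossed 0 with centring or rescaling for LYZ, REG4, FOXA2, FOXA3 and CREB3L1 in AGS and for TFF1 and AGR2 in MKN1. SPINK1 in MKN1 against AGS was no longer called without a filter. In MKN1 most members lie under 1 FPKM, and many of these values rest on few fragments, although the libraries were of like depth.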
